A study of Homo sapiens with 6 samples.

Results

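Genes of cholesterol synthesis and sterol control were read in PANC-1 cells, an established human pancreatic ductal cancer cell line, after 48 h with anlotinib or with DMSO. The 27 listed genes cover the enzymes from acetyl-CoA to cholesterol, the control of the transcription factor SREBP-2, and the uptake, transport and storage of sterols. They were chosen by their role in the pathway, with earlier results of these data known. All probe sets that the array annotation gives to exactly 1 of these symbols were taken, which gave 68 probe sets of 25 genes out of 39219 probe sets in the table. FDFT1, the squalene synthase, had no such probe set, and CYP51A1, a sterol demethylase, was read only by 2 probe sets annotated to a second gene as well, so neither enters the results. The 3 anlotinib samples received anlotinib, an inhibitor of several receptor tyrosine kinases, at 5.535 μM, and the 3 DMSO samples received its solvent. Both groups were PANC-1 cells grown in RPMI-1640 medium with fetal bovine serum, so lipoproteins of the serum could reach the cells in both. RNA was hybridized to Affymetrix PrimeView arrays, 1 per sample, on which a gene has 1 or more probe sets. The labels do not tell if replicates came from separate cultures, so that p-values measure only the spread between these samples, which may be technical.

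Cholesterol is built from acetyl-CoA in the cytosol and the endoplasmic reticulum. Acetyl-CoA is turned into mevalonate, mevalonate into prenyl diphosphates, these into squalene, and squalene is closed to lanosterol and trimmed to cholesterol. When the membrane of the endoplasmic reticulum is poor in sterol, the escort SCAP carries SREBP-2 to the Golgi, where proteases free a fragment that turns on the genes of synthesis. When sterol is plentiful, the INSIG proteins hold SCAP back. INSIG1 is itself a target of SREBP, and cholesterol that arrives from outside passes through the lysosome, which it leaves with the help of NPC2 and NPC1.

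Values are log2 signals made by the authors with RMA, and a positive log2 fold change means a higher signal with anlotinib. Array medians lay between 7.71 and 7.77, and the signals of the 25 genes between 4.80 and 12.37. A probe set was called when the fold change was at least 2 and the FDR of limma, taken over all 39063 tested probe sets, was under 0.05. Where several probe sets read a gene, values are those of the brightest (by mean over all arrays) if nothing else is said, and the words "past the FDR alone" stand for genes under the 2-fold limit. With no fold limit the FDR was passed by 55.1% of all genes, so passing it is common on these arrays. All 5 listed markers of ductal epithelium were measured. KRT8, KRT18 and KRT19, keratins of such cells, read 12.89 to 14.61, and KRT7 and EPCAM were dimmer at 6.89 to 8.55. All 5 were lower with anlotinib past the FDR alone (log2 fold changes −0.75 to −0.26), with none called at the brightest probe set and 1 dimmer probe set of KRT8 called down-regulated. Of 11 markers of leukocytes, endothelial cells and fibroblasts 7 were measured, and their signals stayed between 5.08 and 6.79. These are low signals on the arrays, at percentiles 12.5 to 31.8 of mean signal. None of them was called, and 3 were lower past the FDR alone. The summed linear signal of the 5 ductal markers ran from 35185.1 to 35561.4 with anlotinib and from 54264.2 to 54425.3 in DMSO. That of the 7 other markers ran from 394.7 to 408.3 with anlotinib and from 444.5 to 476.0 in DMSO, and the part of either in the results on sterol genes was not tested. Arrays of equal RNA input cannot tell less of an mRNA in every cell from a smaller share of cells that express it.

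Most genes of the pathway had higher signals with anlotinib. HMGCS1, MSMO1 and INSIG1, which are 2 enzymes and 1 regulator, were called up-regulated at the brightest probe set, and 0 were called down-regulated. That is 3 of 25 genes, beside 2.10% of all 15253 genes tested called up-regulated and 1.91% called down-regulated. Past the FDR with no fold limit, 17 of the 25 were higher and 3 lower, against 25.4% and 29.7% of all genes, and 5 did not pass it. The median log2 fold change of the 25 genes was 0.40, and that of all genes was −0.04. Every anlotinib array lay above every DMSO array in 18 genes and below in 4, while over all genes this held for 28.6% and 33.5%. By probe set, 9 of 68 were called up-regulated and 1 down-regulated, beside 2.38% and 1.71% of all probe sets. With no fold limit, 42 of the 68 were higher and 9 lower, beside 28.3% of all probe sets each way. At a limit of 1.5-fold, 9 of the 25 genes were higher and 1 lower, beside 7.37% and 7.71% of all genes, and 23 of the 68 probe sets were higher and 4 lower, beside 8.38% and 7.34% of all probe sets. For these genes such counts are a description, since genes of 1 pathway are not independent of each other.

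**Figure D1:**
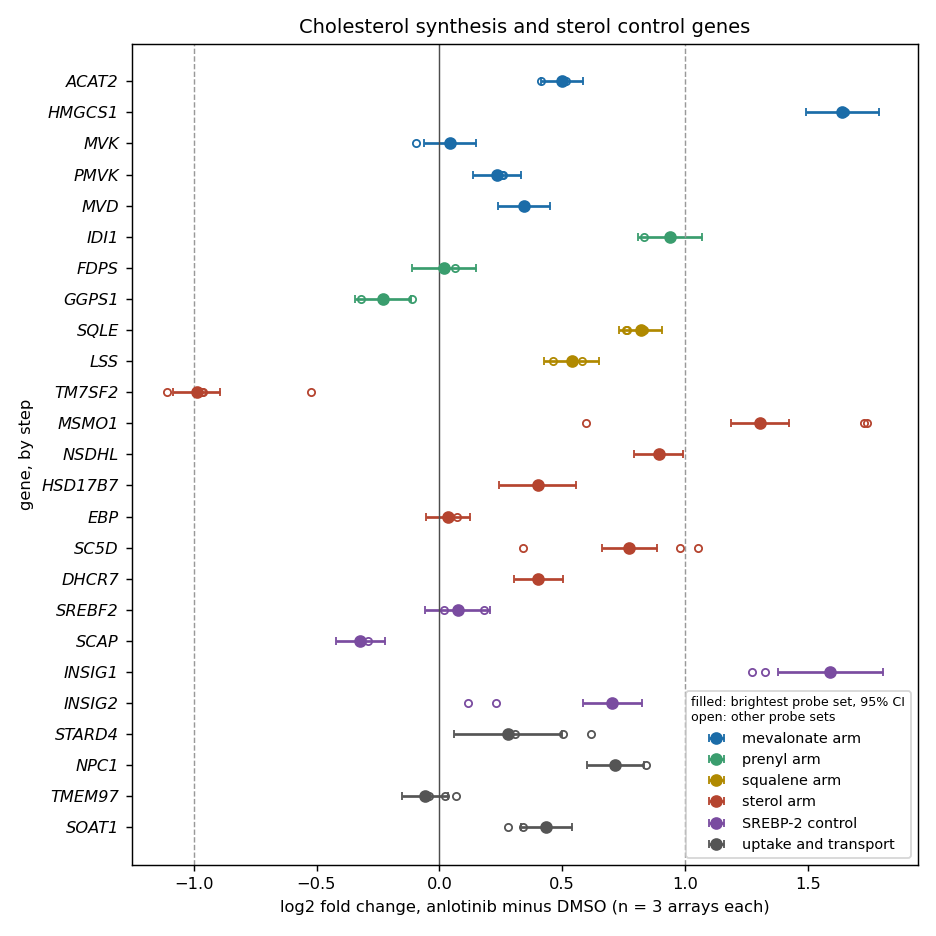
Log2 fold change (anlotinib minus DMSO) of the 25 genes, ordered by step of the pathway, with the brightest probe set filled and its 95% confidence interval from limma, and the other probe sets open. The dashed lines mark a 2-fold change; HMGCS1, MSMO1 and INSIG1 lie beyond the right line, and TM7SF2 lies at the left one.

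The promoters of the 3 called genes and of SREBF2, the gene of SREBP-2 itself, are shown because SREBP-2 is known to bind sterol regulatory elements beside NF-Y at promoters of this pathway. The sequences are the 250 bases before the start site in RefSeq, build GRCh38.p14, and each reads 5′ to 3′ on the strand of its gene. Capitals mark CACNCCAC, the core of a sterol regulatory element, CCAAT, the NF-Y box, and CACGTG, an E-box, searched on both strands, so that a match on the other strand appears as its reverse complement. HMGCS1 lies at chr5:43313413-43313662 on the minus strand (1 of 2 listed start sites), MSMO1 at chr4:165327419-165327668, INSIG1 at chr7:155297628-155297877 and SREBF2 at chr22:41832855-41833104, these 3 on the plus strand.
HMGCS1: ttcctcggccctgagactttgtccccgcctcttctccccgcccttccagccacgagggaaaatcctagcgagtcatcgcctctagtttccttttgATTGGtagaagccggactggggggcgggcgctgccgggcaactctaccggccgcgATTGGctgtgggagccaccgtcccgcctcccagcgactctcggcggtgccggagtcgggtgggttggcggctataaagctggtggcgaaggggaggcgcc
MSMO1: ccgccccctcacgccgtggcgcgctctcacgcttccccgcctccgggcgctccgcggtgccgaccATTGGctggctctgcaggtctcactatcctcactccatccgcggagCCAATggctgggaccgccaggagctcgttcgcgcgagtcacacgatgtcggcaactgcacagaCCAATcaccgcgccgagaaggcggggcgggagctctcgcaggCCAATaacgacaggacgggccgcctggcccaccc
INSIG1: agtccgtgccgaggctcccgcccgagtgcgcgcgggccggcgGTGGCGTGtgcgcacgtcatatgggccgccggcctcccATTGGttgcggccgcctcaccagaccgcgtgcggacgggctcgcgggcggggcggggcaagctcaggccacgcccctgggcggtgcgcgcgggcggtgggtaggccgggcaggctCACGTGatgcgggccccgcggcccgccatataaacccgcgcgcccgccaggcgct
SREBF2: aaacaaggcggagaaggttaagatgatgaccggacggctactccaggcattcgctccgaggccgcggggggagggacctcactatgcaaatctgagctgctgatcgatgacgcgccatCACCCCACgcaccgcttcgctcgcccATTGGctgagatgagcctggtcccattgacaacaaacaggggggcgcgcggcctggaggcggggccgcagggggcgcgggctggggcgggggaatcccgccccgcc

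CCAAT was the motif that the promoters of these genes held most often, as over all windows. With 5 letters it is the shortest of the motifs searched. Windows of 300 bases (250 before and 50 after the start site) were listed for 23 of the 25 genes, with 31 windows in all, and ACAT2 and SQLE had no entry. CCAAT stood in 21 of the 31 windows, 67.7%, against 34.61% of all 35116 windows. The MSMO1 promoter held 4 copies, that of HMGCS1 held 2, and those of INSIG1 and SREBF2 held 1 each. Copies did not go with the fold change alone. MVK, with a log2 fold change of 0.04, held more copies than MSMO1, and so did NSDHL, with 0.89. TM7SF2 and GGPS1, which were lower, held 1 each, as INSIG1 did. FDPS, EBP and TMEM97, which did not pass the FDR, each held several. CACNCCAC stood in 5 of the 31 windows (IDI1, SC5D in both of its windows, SREBF2 and INSIG1), 16.1%, and in 5.87% of all windows. CACGTG stood in 5 windows (LSS, SC5D in both, SCAP and INSIG1), also 16.1%, and in 7.26% of all. Windows of 1 gene overlap and promoters differ in base composition, so these shares are given with no test. A match is a description of the letters and no proof of a site.

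The mevalonate arm turns acetyl-CoA into isopentenyl diphosphate. HMGCS1, which joins acetoacetyl-CoA and acetyl-CoA to HMG-CoA, stood out in it. Its log2 signals were 10.45, 10.67 and 10.57 with anlotinib, against 8.96, 8.94 and 8.87 in DMSO. All 3 anlotinib arrays were thus higher than all DMSO arrays, with a gap of 1.49 between the groups. HMGCS1 rose 3.12-fold (log2 fold change 1.64, SE 0.06, adjusted p = 2.49e-06), and its second probe set gave 1.65 (SE 0.08) and was called as well. ACAT2, the thiolase that makes acetoacetyl-CoA in the cytosol, read 12.36, 12.33 and 12.35 with anlotinib and 11.85 in each of the 3 DMSO arrays. The difference of 0.50 (SE 0.04, adjusted p = 2.87e-05) passed the FDR alone, and the other 2 probe sets gave 0.41 and 0.51.

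The 3 enzymes that follow in this arm moved less. MVK, which phosphorylates mevalonate first, read 8.84, 8.78 and 8.81 with anlotinib and 8.82, 8.76 and 8.72 in DMSO, and the groups overlapped. Its log2 fold change was 0.04, with a 95% confidence interval of −0.06 to 0.15, and that of its dimmer probe set was −0.09, so that no direction can be given. PMVK, the kinase of the next step, had 0.23 (SE 0.04, adjusted p = 0.00219), and its 3 probe sets lay between 0.23 and 0.26. MVD, which decarboxylates the product to isopentenyl diphosphate, had 0.34 (SE 0.04, adjusted p = 4.47e-04) at its only probe set. PMVK and MVD passed the FDR alone, and their anlotinib arrays lay above their DMSO arrays by 0.17 and 0.28.

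The prenyl arm, where isoprene units are joined, holds 3 of the genes. IDI1, which isomerises isopentenyl diphosphate, read 10.83, 10.90 and 10.98 with anlotinib and 9.97, 9.91 and 10.03 in DMSO. All anlotinib arrays were higher, and the log2 fold change of 0.94 (SE 0.05, adjusted p = 1.12e-05) lay just under the 2-fold limit, as did that of the other probe set, 0.83. FDPS makes farnesyl diphosphate, the last intermediate shared with protein prenylation. Its signals overlapped, at 11.61, 11.59 and 11.72 with anlotinib and 11.66, 11.67 and 11.55 in DMSO, and the log2 fold change was 0.02 (95% confidence interval −0.11 to 0.15). GGPS1, which leads away from sterols to geranylgeranyl diphosphate, was lower past the FDR alone, at 10.91, 10.93 and 10.86 with anlotinib against 11.06, 11.14 and 11.19 in DMSO. The difference was −0.23 (SE 0.05, adjusted p = 0.00526), and the other probe sets gave −0.11, which did not pass the FDR (adjusted p = 0.0609), and −0.32. With the median of its probe sets in place of the brightest, GGPS1 was at −0.11 and no longer passed (adjusted p = 0.0584). Of these 3 genes, 1 was thus higher and 1 lower past the FDR with no fold limit, near the shares over all genes (25.4% and 29.7%), and 0 were called.

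SQLE and LSS carry squalene to lanosterol. SQLE, the squalene epoxidase and a slow step of the pathway, read 11.04, 11.02 and 11.04 with anlotinib and 10.19, 10.23 and 10.22 in DMSO, a tight separation of the groups. Its log2 fold change was 0.82 (SE 0.04, adjusted p = 4.26e-06), and all 4 of its probe sets lay between 0.76 and 0.83. LSS, the lanosterol synthase that closes the rings, read 9.81, 9.75 and 9.85 with anlotinib against 9.33, 9.23 and 9.25 in DMSO. The log2 fold change of 0.54 (SE 0.05, adjusted p = 7.01e-05) was close to those of its other 2 probe sets, 0.58 and 0.46. Both genes passed the FDR alone, and every anlotinib array was higher than every DMSO array at all 7 probe sets. Over all genes, 25.4% were higher past the FDR with no fold limit. All anlotinib arrays lay above all DMSO arrays in 28.6% of all genes at the brightest probe set. Probe sets of the same gene are not separate evidence.

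**Figure D2:**
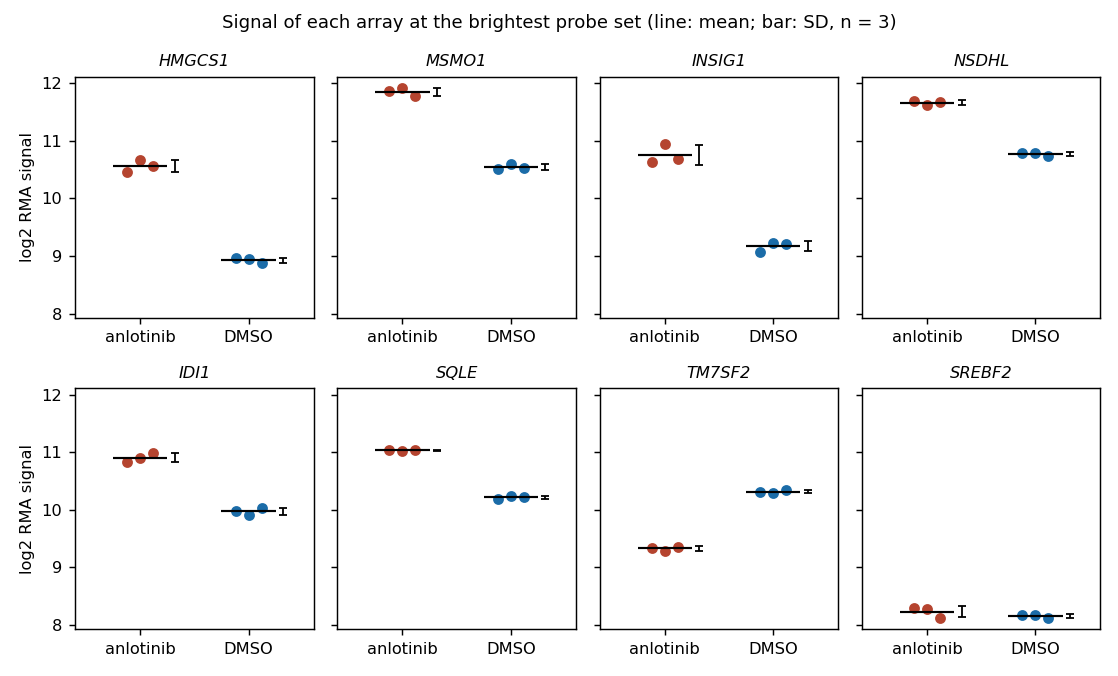
Log2 RMA signal of each of the 3 anlotinib and 3 DMSO arrays for 8 genes at the brightest probe set, with the mean as a line and the SD as a bar. Anlotinib arrays lie above DMSO arrays in HMGCS1, MSMO1, INSIG1, NSDHL, IDI1 and SQLE and below them in TM7SF2, and the groups overlap in SREBF2.

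The sterol arm, in which lanosterol is trimmed to cholesterol, held both an enzyme called up-regulated, MSMO1, and the only enzyme called down-regulated at any probe set. MSMO1, the oxidase of the methyl groups at C4, read 11.86, 11.91 and 11.78 with anlotinib and 10.51, 10.60 and 10.53 in DMSO. It rose 2.47-fold (log2 fold change 1.31, SE 0.05, adjusted p = 2.5e-06), and 2 further probe sets called up-regulated gave 1.73 and 1.74. The fourth gave 0.60 (adjusted p = 0.00403). That probe set read 5.88, 5.65 and 5.66 with anlotinib and 4.87, 5.25 and 5.28 in DMSO, near the bottom of the table, where the lowest mean signal tested was 4.41. NSDHL, the decarboxylating dehydrogenase that acts next on C4, read 11.69, 11.62 and 11.68 with anlotinib and 10.79, 10.79 and 10.73 in DMSO. Its log2 fold change of 0.89 (SE 0.04, adjusted p = 4.97e-06) was under the 2-fold limit. HSD17B7, the ketoreductase of the same C4 steps, had 0.40 (SE 0.07, adjusted p = 0.00157) at its only probe set, which ends in _x_at, a mark of probes that may also bind other transcripts.

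TM7SF2 is a reductase of the C14 double bond, a step that LBR, a protein of the inner nuclear membrane, can also carry out. It read 9.33, 9.29 and 9.36 with anlotinib and 10.31, 10.29 and 10.34 in DMSO, so that all anlotinib arrays lay below all DMSO arrays, as they did in GGPS1 and in no other enzyme. The log2 fold change was −0.99 (SE 0.04, adjusted p = 3.15e-06), a hair under the 2-fold limit. Its 5 probe sets all had lower signals with anlotinib, between −1.11 and −0.52, and 1 of them was called (−1.11, adjusted p = 3.02e-06). All of them end in _x_at or _s_at, so none is free of the doubt about other transcripts. That doubt is not limited to TM7SF2. Among the 25 members the brightest probe set ends in _s_at in 5 and in _x_at in 7, with MSMO1 and INSIG1 among the former. With such probe sets left out, MSMO1 was at 1.74 and INSIG1 at 1.27, and both were still called. The brightest probe set of TM7SF2 was called down-regulated without anlotinib replicate 3 (−1.004), after a second quantile normalization (−1.003) and with each array centred on its median (−1.0003). Another probe set of TM7SF2 was called down-regulated without DMSO replicate 3 (−1.01). LBR, which is no member of the list, had −0.18 (SE 0.05, adjusted p = 0.0118), past the FDR alone.

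Of the later enzymes, SC5D and DHCR7 had clearly higher signals and EBP hardly differed. SC5D, the desaturase at C5, read 11.71, 11.62 and 11.73 with anlotinib and 10.89, 10.96 and 10.88 in DMSO at the brightest probe set. The difference of 0.77 (SE 0.05, adjusted p = 1.4e-05) passed the FDR alone. A dimmer probe set was called up-regulated, at 11.10, 11.09 and 11.09 against 10.04, 10.06 and 10.03 in DMSO (1.05, SE 0.04). The other 2 gave 0.98 and 0.34, so the 4 probe sets of this gene straddled the limit, and the one at 0.98 passed it without DMSO replicate 2 (1.01). The brightest ends in _s_at, and with such probe sets left out SC5D was called at 1.05. DHCR7, which makes cholesterol from 7-dehydrocholesterol, had 0.40 (SE 0.04, adjusted p = 1.6e-04) past the FDR alone, with 11.85, 11.83 and 11.90 against 11.50, 11.46 and 11.42 in DMSO. EBP, the isomerase of the sterol B ring, read 11.66, 11.66 and 11.69 with anlotinib and 11.65, 11.64 and 11.61 in DMSO. The lowest anlotinib array all but touched the highest DMSO array, and the difference of 0.04 had a 95% confidence interval of −0.05 to 0.12, which lies inside the 2-fold limit.

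Over the 17 enzymes the count was 12 higher and 2 lower past the FDR with no fold limit, beside 25.4% and 29.7% of all genes, with a median log2 fold change of 0.40. The mean log2 signal over these enzymes was 10.70, 10.69 and 10.72 on the anlotinib arrays and 10.26, 10.27 and 10.24 on the DMSO arrays. No single array carried the difference. Among the 21 members with more than 1 probe set, all log2 fold changes were above 0 in 16, all were below 0 in 3, and signs were mixed in 2, MVK and TMEM97. How often signs agree over all genes with several probe sets is not given here. At the brightest probe set, 21 of the 25 members and 6553 of all 15253 genes had a log2 fold change above 0.

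Among the genes that control SREBP-2, both INSIG genes were higher past the FDR with no fold limit, SCAP was lower, and SREBF2 did not pass it. INSIG1 read 10.64, 10.95 and 10.68 with anlotinib and 9.07, 9.23 and 9.21 in DMSO, a gap of 1.42 between the groups. It rose 3.01-fold (log2 fold change 1.59, SE 0.09, adjusted p = 1.02e-05), and its other 2 probe sets, both called, gave 1.27 and 1.32. INSIG2, its paralog, read 9.84, 9.78 and 9.84 with anlotinib and 9.18, 9.13 and 9.03 in DMSO. The difference was 0.70 (SE 0.05, adjusted p = 2.6e-05) past the FDR alone. The probe sets of INSIG2 differed, since the others gave 0.11 (adjusted p = 0.101) and 0.23 (adjusted p = 0.00289).

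SREBF2 mRNA, which encodes SREBP-2, read 8.29, 8.28 and 8.12 with anlotinib and 8.17, 8.18 and 8.12 in DMSO. The groups overlapped, and the log2 fold change was 0.07 with a 95% confidence interval of −0.06 to 0.21, while the other probe sets gave 0.18 and 0.02, neither past the FDR. Without anlotinib replicate 3, its lowest anlotinib array, SREBF2 was at 0.13 and passed the FDR alone (limma, adjusted p = 0.0496). These arrays measure mRNA, and the cleavage of the SREBP-2 protein was not measured here. SCAP, the sterol sensor and escort, was lower past the FDR alone, with 8.80, 8.85 and 8.77 against 9.10, 9.17 and 9.13 in DMSO. The difference was −0.32 (SE 0.04, adjusted p = 5.13e-04), and −0.29 at the second probe set. MBTPS1 and MBTPS2, the site-1 and site-2 proteases that cut SREBP in the Golgi and are no members, also had lower signals past the FDR alone (−0.31, SE 0.04, and −0.59, SE 0.04). SREBF1, which encodes SREBP-1 and is likewise no member, had 8.36, 8.46 and 8.40 with anlotinib and 10.44, 10.46 and 10.41 in DMSO. SREBF1 fell by 2.03 on the log2 scale (SE 0.04, adjusted p = 5.8e-07), and its other 2 probe sets were also called down-regulated.

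NPC1, the membrane protein through which cholesterol leaves the lysosome, read 9.09, 9.05 and 9.19 with anlotinib and 8.42, 8.41 and 8.36 in DMSO. The difference was 0.72 (SE 0.05, adjusted p = 2.22e-05) past the FDR alone, and 0.84 at the second probe set. NPC2, the soluble carrier that hands cholesterol to NPC1, is no member of the list. It had 12.13, 12.09 and 12.20 with anlotinib and 11.15, 11.22 and 11.18 in DMSO, a log2 fold change of 0.96 (SE 0.05), and a dimmer probe set was called up-regulated at 1.04. The third probe set of NPC2, far dimmer at 5.66 to 6.00 with anlotinib and 5.87 to 5.93 in DMSO, overlapped between the groups and gave −0.03 (adjusted p = 0.807). STARD3, a cholesterol transfer protein of late endosomes, is no member either and had −0.01 (adjusted p = 0.865), which is given because it acts at the same organelle and was picked after its values were seen. TMEM97, the sigma-2 receptor, a membrane protein that binds NPC1, did not share this. Its signals were 10.34, 10.32 and 10.39 with anlotinib and 10.42, 10.42 and 10.40 in DMSO, so that the groups all but touched, the difference of −0.06 had a 95% confidence interval of −0.15 to 0.04, and the 5 probe sets lay between −0.06 and 0.07.

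STARD4, a cytosolic carrier of sterol, was the dimmest member. It read 6.21, 5.86 and 6.16 with anlotinib and 5.77, 5.76 and 5.85 in DMSO, so that the groups were 0.01 apart. The log2 fold change was 0.28 (SE 0.09, adjusted p = 0.0357), and it passed the FDR only while anlotinib replicates 1 and 3 and all DMSO replicates were kept. With any 1 of these 5 arrays left out, the adjusted p lay between 0.0548 and 0.11, so that STARD4 is the least secure of the 17 genes counted as higher. The other probe sets, dimmer still, gave 0.31 (adjusted p = 0.076), 0.50 (adjusted p = 0.00317) and 0.62 (adjusted p = 3.82e-05). SOAT1, which esterifies cholesterol for storage, read 10.63, 10.68 and 10.64 with anlotinib and 10.27, 10.21 and 10.17 in DMSO (log2 fold change 0.44, SE 0.04, adjusted p = 1.25e-04), past the FDR alone. NCEH1, a hydrolase that frees cholesterol from esters and is no member, had 0.84 (SE 0.04) past the FDR alone.

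**Figure D3:**
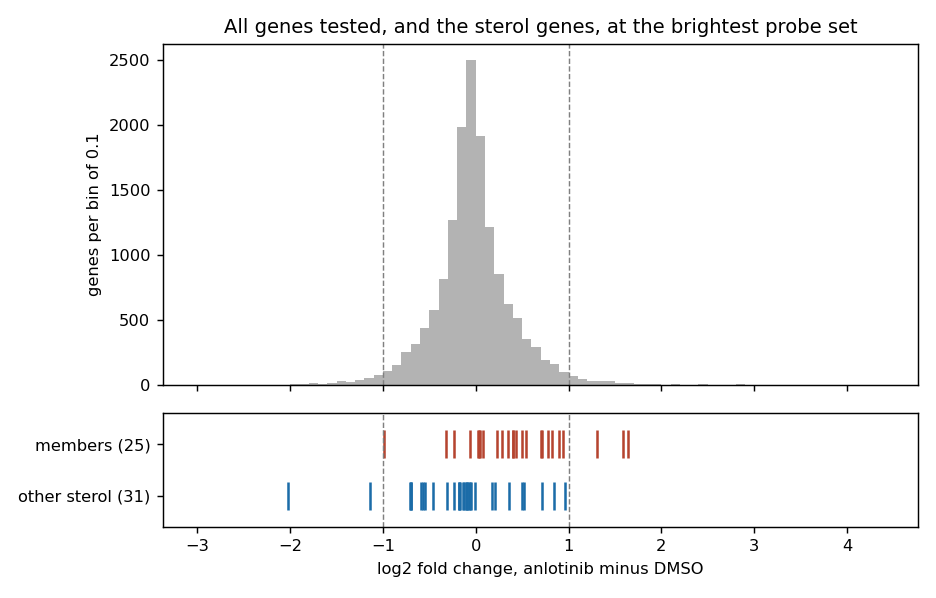
Top, the number of genes in each bin of log2 fold change (anlotinib minus DMSO) for all 15253 genes tested; bottom, a tick for each of the 25 members and for each of 31 other sterol genes. The members center on 0.40 and the other sterol genes on −0.12, while all genes center on −0.04, and the dashed lines mark 2-fold.

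A wider list of sterol genes outside the members was taken for their roles, also with earlier results of these data known. Of 31 of these genes tested, 0 were called up-regulated and 2 down-regulated, SREBF1 and GRAMD1A, beside 2.10% and 1.91% of all genes. Past the FDR with no fold limit, 8 were higher and 14 lower, where 25.4% and 29.7% of all genes were, so that the share of higher genes was close to that over all genes. The median log2 fold change was −0.12. GRAMD1A, which moves cholesterol from the plasma membrane to the endoplasmic reticulum, read 7.65, 7.52 and 7.62 with anlotinib and 8.75, 8.76 and 8.70 in DMSO. GRAMD1A fell by 1.14 on the log2 scale (SE 0.05, adjusted p = 3.78e-06). RNF145, a ubiquitin ligase of the endoplasmic reticulum, had 0.49 at its brightest probe set (adjusted p = 4.05e-05) and 1.01 at another, which was called up-regulated. ACSS2, which makes acetyl-CoA from acetate for the first step of the pathway, had 0.71 (SE 0.05) past the FDR alone, with 8.58, 8.50 and 8.63 against 7.83, 7.86 and 7.88 in DMSO. It had the highest value of the 7 genes of synthesis in this list. Of these 7, 2 were higher and 3 lower past the FDR with no fold limit, beside 25.4% and 29.7% of all genes. Their median log2 fold change was −0.10. ABCA1, which pumps cholesterol out of the cell, had −0.70 (SE 0.09, adjusted p = 5.09e-04), with 6.87, 6.77 and 7.11 against 7.54, 7.71 and 7.60 in DMSO, and its second probe set lay near 0. Among genes of the oxysterol receptor LXR and of sterol efflux, 0 of 5 were higher and 2 lower past the FDR with no fold limit, too few genes to set apart from those shares.

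**Figure D4:**
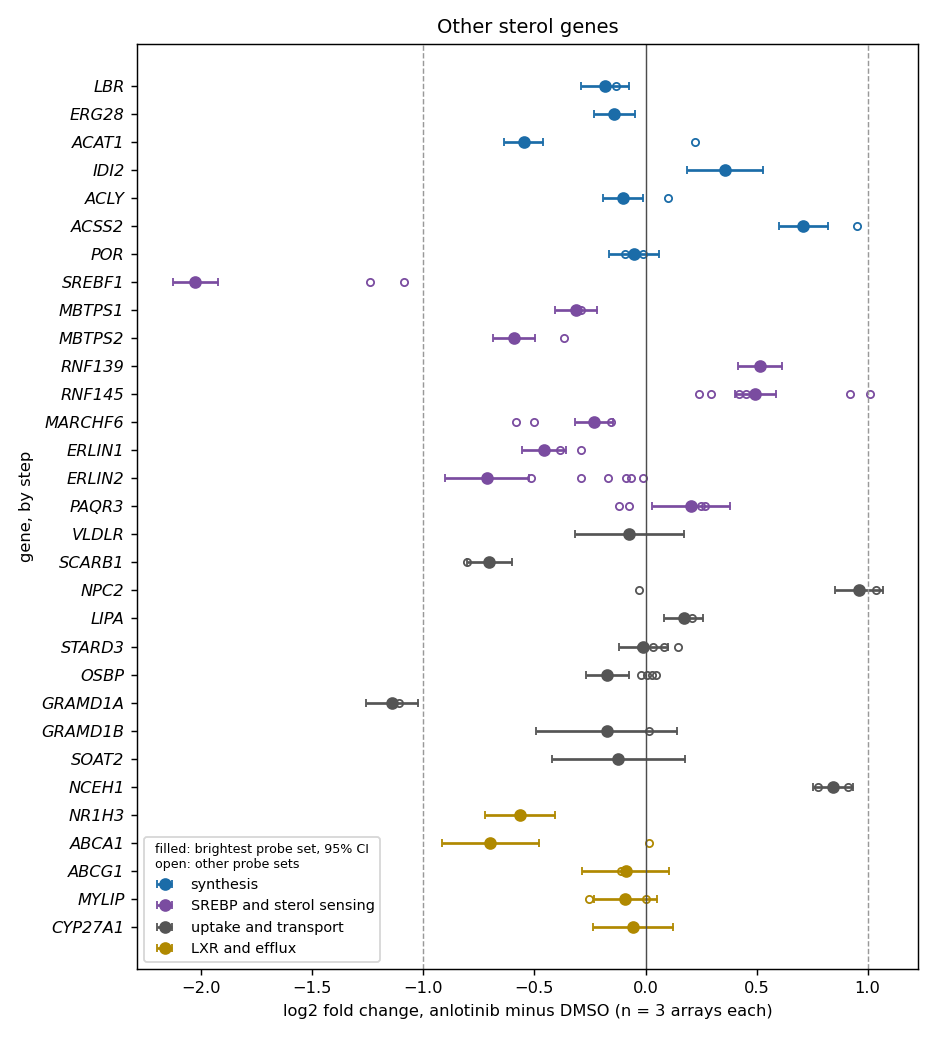
Log2 fold change (anlotinib minus DMSO) of the 31 other sterol genes, with the brightest probe set filled and its 95% confidence interval, and the other probe sets open. SREBF1 and GRAMD1A lie left of the dashed line that marks a 2-fold decrease, and no filled point lies right of the line for a 2-fold increase.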

How the data were processed

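RNA of PANC-1 cells, 3 samples with anlotinib and 3 with DMSO, was hybridized to Affymetrix PrimeView arrays. The deposited table holds log2 signals, which the authors computed with RMA (background adjustment, normalization between arrays, summary per probe set). Their methods also state filters on low signals and on the CV. Groups were taken from the labels. Control probe sets (73) and probe sets whose CV within a group exceeded 25% on the linear scale (83) were left out, which kept 39063. limma 3.58.1 in R 4.3.3 was fitted over all of them (lmFit, eBayes), with Benjamini-Hochberg adjustment over the same 39063. Confidence intervals are those of limma's moderated test.

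Genes were named through the array annotation, with 35858 tested probe sets given to 1 gene, 1429 to several and 1776 to none. All members are named. Of the wider list, the genes called at any probe set are named, and also LBR, MBTPS1, MBTPS2, STARD3, NCEH1, ACSS2 and ABCA1. The members and lists were chosen with earlier results of these data known. Promoter windows are those of RefSeq, build GRCh38.p14. Arrays carry no counts, so that the number of arrays limits the precision. With 3 against 3, an exact permutation test of a single value cannot pass the threshold, so that none was run. The procedure was tested on simulated data. The alternatives tried were other CV, signal and cross-hybridization filters, a second quantile normalization, centring, other fold limits, treat, eBayes with trend, a replicate block, other choices of a gene's probe set, and each array left out in turn. Further genes of the pathway were not analysed here.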

Additional observations from a re-analysis of the deposited data

How the results depend on the processing

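The 3 calls of HMGCS1, MSMO1 and INSIG1 held under every alternative tried. The counts moved mainly with the fold limit. At 1.5-fold, 23 probe sets and 9 genes of the members were higher (8.38% and 7.37% over all probe sets and genes) and 4 probe sets and 1 gene lower (7.34% and 7.71%), and among the other sterol genes 3 were higher and 6 lower. With no fold limit these counts were 42 and 17 higher, 9 and 3 lower, and for the other sterol genes 8 higher and 14 lower. With limma's treat at 2-fold, 0 member probe sets and 1 other sterol gene were lower. Without _x_at and _s_at probe sets, 5 member probe sets were higher and 0 lower, and the median log2 fold change of the members was 0.54, while TM7SF2 had no probe set left. A second quantile normalization and centring each gave 2 member probe sets and 1 gene lower, that of TM7SF2. At the probe set with the smallest p, 1 member was lower and 2 other sterol genes higher, and with probe sets of each gene summarised by their median 1 other sterol gene was higher. Under both settings, and without _x_at and _s_at probe sets, 4 member genes were called higher, since SC5D joined the 3 (1.05, 1.02 and 1.05). With 1 array left out, 1 to 2 member probe sets and 0 to 1 genes were lower. STARD4 lost the FDR without any 1 of 5 arrays (adjusted p 0.0548 to 0.11) and passed it at the median of its probe sets (1.38e-04). GGPS1 lost the FDR at the median of probe sets (0.0584), and SREBF2 passed it without anlotinib replicate 3 (0.0496). MVK, FDPS and TMEM97 changed sign under 2 settings each and were called in none. Same-numbered samples did not deviate together (r of 0.167, 0.00625 and −0.145), and the replicate block gave 9 member probe sets higher and 1 lower, as without it. Low brightness limits STARD4, the dimmest member, whose brightest probe set stood at percentile 24.4 of mean signal.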
